A study of Mus musculus with 20 samples.

Results

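The genes described here encode heme oxygenase 1 (Hmox1), the metallothioneins Mt1 and Mt2, and 3 enzymes of oxidative stress defence, Nqo1, Gclc and Txnrd1, in kidneys of Hyp and normal mice given a low phosphate or a control diet. All probe sets that the array annotation maps to exactly 1 of these genes were taken, which gave 7 probe sets for 6 genes, out of 12422 probe sets and 8251 singly annotated genes on the array. Nqo1 has 2 probe sets and the other genes have 1 each. All 7 passed the filter on mean intensity that was applied to the whole array. Counts of members below are counts of these probe sets.

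Kidney RNA was hybridised to 20 oligonucleotide arrays, each carrying a pool from 3 C57BL/6J mice, and the deposited signal intensities share 1 trimmed mean across arrays through the authors' scaling. The Hyp mouse, with its Phex mutation, models X-linked hypophosphatemia, in which the kidney wastes phosphate. The 4 groups of 5 arrays came from Hyp mice fed low phosphate, Hyp mice fed control diet, normal mice fed low phosphate and normal mice fed control diet. Every group held 2 pools of males and 1 pool of females fed for 5 days, and 1 pool of males and 1 pool of females fed for 3 days. The ages of the mice and the phosphate content of the diets are not given in the sources used here. The pools hide the spread between single mice, and the p-values measure the spread between pools. Marker genes of the proximal tubule, the largest cell population of the kidney, summed to intensities between 96984 and 122520 on the 20 arrays over the 11 of 14 listed genes that the array holds.

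Heme oxygenase 1 opens the heme ring and releases iron, carbon monoxide and biliverdin, and its gene is strongly inducible by heme, oxidants and inflammation. Metallothioneins are small cysteine-rich proteins that bind zinc, copper and cadmium, and their genes are switched on by the zinc-sensing factor MTF1 through metal response elements and by glucocorticoids. The transcription factor NRF2, held in check by KEAP1, drives an antioxidant programme that includes Hmox1, the quinone reductase Nqo1, the catalytic subunit of glutamate-cysteine ligase Gclc, which makes the first committed step of glutathione synthesis, and the cytosolic thioredoxin reductase Txnrd1. In the kidney the proximal tubule runs on oxidative metabolism and takes up filtered metals and heme proteins.

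The promoters of Mt1 and Mt2 are shown because the levels of these genes moved together across the arrays, as described further on. Both genes lie on the plus strand of chromosome 8, and the starts of the windows are 6471 bases apart. Each window runs from 250 bases before to 50 bases after the RefSeq start of the gene in build GRCm38.p6, at chr8:94172368-94172667 for Mt2 and chr8:94178839-94179138 for Mt1. Capitals mark matches to the core of the metal response element, searched as TGCACNC and TGCGCNC on both strands.
Mt2: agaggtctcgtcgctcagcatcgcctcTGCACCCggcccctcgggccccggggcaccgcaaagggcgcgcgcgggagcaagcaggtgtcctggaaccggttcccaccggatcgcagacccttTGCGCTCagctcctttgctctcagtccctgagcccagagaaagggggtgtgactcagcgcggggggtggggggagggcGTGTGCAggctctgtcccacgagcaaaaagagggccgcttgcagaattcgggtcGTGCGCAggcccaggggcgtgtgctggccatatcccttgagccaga
Mt1: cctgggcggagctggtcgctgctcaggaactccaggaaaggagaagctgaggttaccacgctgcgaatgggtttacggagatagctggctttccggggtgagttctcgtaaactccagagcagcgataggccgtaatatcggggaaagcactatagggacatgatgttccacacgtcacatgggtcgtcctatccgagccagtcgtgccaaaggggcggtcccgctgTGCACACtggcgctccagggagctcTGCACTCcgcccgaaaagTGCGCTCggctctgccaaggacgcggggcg
The Mt2 window held 4 matches, 2 on each strand, and the Mt1 window held 3, all on the forward strand. In each of these windows matches lay both before and after the RefSeq start. Of 32851 windows of this length, 25.7% held at least 1 match, 1.97% held at least 3 and 0.517% held at least 4. The Nqo1 window and the 3 Txnrd1 windows held 0. The core of the antioxidant response element that NRF2 binds, searched as TGACNNNGC on both strands, was present in 12.4% of all windows, among them the Mt2 window and 1 of the 3 Txnrd1 windows, and absent from the Mt1 and Nqo1 windows and the other Txnrd1 windows. No match to one motif overlapped a match to the other. These matches are letters in the reference sequence and say nothing of binding in these kidneys.

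Hmox1 was the member that differed between genotypes, with higher levels in Hyp kidneys. Heme oxygenase 1 is the inducible enzyme of heme breakdown. In Hyp mice on low phosphate diet its intensity was 2145 and 1917 in the 5-day male pools, 2421 in the 5-day female pool, 1615 in the 3-day male pool and 1332 in the 3-day female pool, against 1176.5, 917, 1443, 940 and 1242 in the same order in normal mice on low phosphate diet. In Hyp mice on control diet it was 1025, 1432, 1532, 1077 and 1565.5, against 1071, 851, 1209, 732 and 868 in normal mice on control diet. With low phosphate, 4 of the 5 Hyp arrays lay above every normal array, and the 3-day female pool lay inside the normal range. On control diet 3 of the 5 Hyp arrays lay above every normal array, so the genotypes overlapped on both diets.

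Group means of Hmox1 were 1886 ± 429 in Hyp mice on low phosphate diet, 1326 ± 257 in Hyp mice on control diet, 1144 ± 219.7 in normal mice on low phosphate diet and 946 ± 191 in normal mice on control diet (SD, n = 5 each). In that order from highest to lowest, no pair of neighbours separated beyond its spread. Hyp on low phosphate against Hyp on control and normal on low phosphate against normal on control did not pass the test described below. The ranges of Hyp on control diet (1025 to 1565.5) and normal on low phosphate diet (917 to 1443) overlapped, a pair that differs in genotype and diet and was not tested.

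On low phosphate diet Hmox1 was higher in Hyp than in normal kidneys by 0.69 ± 0.14 on the log2 scale (SE; 95% interval 0.40 to 0.99), or 1.62-fold, with an adjusted p of 0.04 in limma, taken over all 8695 probe sets tested. It was 1 of 7 members that passed in that comparison, against 0.357% of all probe sets tested. On control diet the difference was 0.47 ± 0.14 and the adjusted p was 0.312, with 0 of 7 members passing against 0.253% of probe sets. At an unadjusted p under 0.05 the control diet comparison held 1 of 7 members, Hmox1 itself, against 8.55% of probe sets. Averaged over the diets, the level was 1606 ± 445 in Hyp mice and 1045 ± 220.1 in normal mice (SD, n = 10 each). The difference was 0.58 ± 0.10 (95% interval 0.37 to 0.79) with an adjusted p of 0.00535, and again 1 of 7 members passed, against 1.28% of probe sets. At an unadjusted p under 0.05 in limma the averaged comparison held Hmox1 alone, against 15% of probe sets. On no diet and in no genotype did the arrays of a member separate fully between the groups compared. That happened for 0.828% of probe sets between genotypes on low phosphate diet, 0.771% on control diet, 0.426% between diets in Hyp mice and 1.55% in normal mice. The averaged comparison uses the same arrays as the comparisons on each diet and is no separate evidence.

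**Figure D1:**
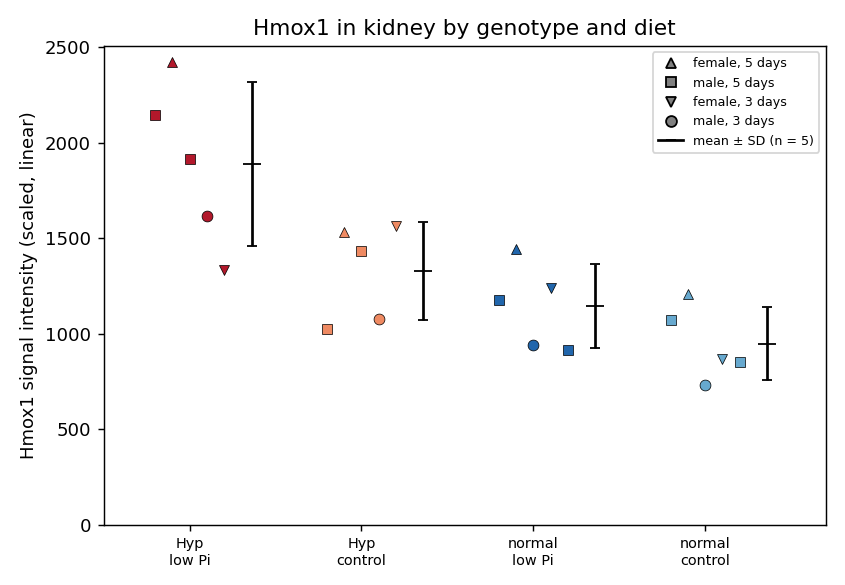
Signal intensity of Hmox1 on each of the 20 arrays in the 4 groups (Pi, phosphate), with symbols for sex and days on diet and bars for the mean and SD (n = 5). Hyp mice on low phosphate diet average 1886 and normal mice on low phosphate diet 1144, and the 3-day female Hyp pool at 1332 lies within the range of the normal arrays.

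The genotype difference of Hmox1 was positive in 4 of 4 strata of sex and days, of which the 5-day male stratum also compares arrays of different sets. Averaged over diets it was 0.64 in 5-day males, 0.53 in 5-day females, 0.65 in 3-day males and 0.46 in 3-day females. On low phosphate diet the values were 0.94, 0.73, 0.76 and 0.10 in the same order, with the smallest value in 3-day females. On control diet they were 0.33, 0.33, 0.53 and 0.82, with the largest value in that same stratum. After 5 days the difference averaged over diets was 0.60 ± 0.12 (adjusted p = 0.0753) and after 3 days 0.55 ± 0.15 (adjusted p = 0.526). The difference between the durations was 0.05 (95% interval -0.37 to 0.47).

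The averaged genotype call held when any single array was left out, with values of 0.53 to 0.65 and adjusted p of 0.000976 to 0.0166. The call on low phosphate diet was less stable. It was lost without any one of arrays 2, 4, 5, 6, 8, 10, 11, 12, 13, 14, 15, 16 and 20, numbered as in the labels, with differences of 0.62 to 0.75 and adjusted p of 0.0547 to 0.13. With the array set, a run of consecutive array numbers, as a random block the differences were 0.66 on low phosphate diet (adjusted p = 0.037) and 0.55 averaged over diets (0.00858). The averaged call was lost without terms for sex and days (0.58, adjusted p = 0.0656), without arrays 9, 10, 19 and 20 (0.51, 0.0599), in males (0.64, 0.0819) or females (0.50, 0.719) alone, and after 5 days (0.60, 0.16) or 3 days (0.55, 0.343) alone. The call on low phosphate diet was lost in 10 of 14 other settings, with adjusted p of 0.0514 to 0.904. The array sets 1 to 4, 5 to 8, 11 to 14 and 15 to 18 each held 1 array of every group, with sex and days matched. The second 5-day male pools lay in different sets by genotype, Hyp on arrays 9 and 10 and normal on arrays 19 and 20. Within the 4 complete sets the averaged difference was 0.39 to 0.65 and that on low phosphate diet 0.10 to 0.85. On control diet it was -0.06 in arrays 1 to 4 and 0.33, 0.53 and 0.82 in the others. Because a pool of whole kidney mixes cell types, more cells of a kind that expresses Hmox1 and more Hmox1 RNA per cell cannot be told apart.

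Macrophages express Hmox1 strongly, and their markers were measured beside it. Of 16 listed markers 15 were on the array and 10 passed the filter. Averaged over diets, 9 of the 10 had a positive Hyp difference, with a median of 0.21 against 0.02 for all genes, and 0 of the 10 passed the test in limma, with 3 at an unadjusted p under 0.05. Their summed intensity was 4461 to 5096 in Hyp mice on low phosphate diet, 4647 to 5834 in Hyp mice on control diet, 4103.5 to 4473 in normal mice on low phosphate diet and 4071 to 4621 in normal mice on control diet. On control diet the lowest Hyp sum, 4647, lay just above the highest normal one, 4621. On low phosphate diet the lowest Hyp sum, 4461, lay just below the highest normal one, 4473. The highest macrophage sum was in Hyp mice on control diet. Over the 20 arrays the macrophage sum and Hmox1 had a Pearson r of 0.33, given as a description of arrays that share groups and scaling. No marker was at 0 on any array. The brightest were Csf1r and C1qc, at mean intensities of 861 and 779. Adgre1, Itgam, Ptprc, Aif1 and Fcer1g were too dim to pass the filter, at 49.8, 24.9, 64.6, 31.1 and 21.9. The part of macrophages in the Hmox1 difference was not tested.

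Red cells are a source of heme, and their markers were also measured. Of 12 listed markers 6 were on the array, and none was at 0. The 4 that passed the filter all had a positive Hyp difference averaged over diets, with a median of 0.36 and an unadjusted p under 0.05 for 4 of 4, against 15% of probe sets. Slc4a1, the anion exchanger of red cells and of acid-secreting collecting duct cells, passed the test with 0.35 (adjusted p = 0.0426). The summed red cell markers ran from 12714 to 15425 in Hyp mice on low phosphate diet, 8361 to 19825 in Hyp mice on control diet, 8136 to 12896 in normal mice on low phosphate diet and 10595 to 15205 in normal mice on control diet. The groups overlapped, and r with Hmox1 was 0.13 over the 20 arrays. The 4 adrenal markers on the array, of 6 listed, had no value at 0 and summed to 1049.9 to 2148 in Hyp mice on low phosphate diet, 834 to 1552 in Hyp mice on control diet, 733 to 2628 in normal mice on low phosphate diet and 832 to 1976 in normal mice on control diet, with r of 0.55 with Hmox1. This r was not taken within strata of sex and days. Of 2 tested adrenal markers, 2 passed as higher after 5 days, against 20.7% of probe sets, and 2 as higher in females, where 16.6% passed in either direction. For genotype averaged over diets 0 passed, against 1.28%. The 11 proximal tubule markers all had a negative Hyp difference averaged over diets, with a median of -0.11, and 0 passed in limma, with 2 at an unadjusted p under 0.05. Of 7 markers of the loop of Henle and distal tubule, 3 passed in that comparison, with Kcnj1 and Slc12a3 higher at 0.33 each and Calb1 lower at -0.71. Their sums had r of -0.045 with Hmox1. Of 5 tested hepatocyte markers 4 had a positive Hyp difference averaged over diets, with a median of 0.45, 3 at an unadjusted p under 0.05 and 1 call in limma. Each diet was also taken alone. On low phosphate diet 4 were positive, with a median of 1.47, 4 at an unadjusted p under 0.05 and 1 call, Ttr (2.53). On control diet 2 were positive and 3 negative, with a median of -0.41, 3 at an unadjusted p under 0.05 and 1 call. The interaction of genotype and diet was positive for 2 and negative for 3, with a median of -0.03. In limma 1 had an unadjusted p under 0.05 and 0 passed, so a difference between the diets was not shown. The summed hepatocyte markers ran from 2263 to 22761 in Hyp mice on low phosphate diet, 3435 to 11461 in Hyp mice on control diet, 1605 to 8365 in normal mice on low phosphate diet and 1662 to 13736 in normal mice on control diet, so the groups overlapped, and r with Hmox1 was -0.075. None of the 7 on the array was at 0. The part of these cell types in the Hmox1 difference was not tested.

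Mean Hmox1 levels were higher on low phosphate than on control diet in both genotypes, but neither difference passed the test. In Hyp mice 4 of the 5 low phosphate arrays lay above every control diet array, and the difference was 0.49 ± 0.14 (95% interval 0.19 to 0.79; adjusted p = 0.665). In normal mice 2 of the 5 low phosphate arrays lay above every control diet array, and the difference was 0.27 ± 0.14 (95% interval -0.03 to 0.56; adjusted p = 0.637). Averaged over genotypes it was 0.38 ± 0.10 with an adjusted p of 0.142. Among the strata the difference in Hyp mice was 0.72 in 5-day males, 0.65 in 5-day females and 0.57 in 3-day males, but -0.23 in 3-day females, where the control diet pool at 1565.5 was the highest of its group. Without array 18, the 3-day female Hyp pool on low phosphate diet, the diet difference averaged over genotypes was 0.45 and passed (adjusted p = 0.0376). The Hyp low phosphate arrays enter both the diet comparison in Hyp mice and the genotype comparison on low phosphate diet, so a high level on them moves both.

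The test of whether the genotypes responded differently to the diet gave 0.22 for Hmox1 (95% interval -0.20 to 0.64; adjusted p = 1), so a different diet response was not shown. No member passed in the diet comparisons or in the interaction. The count was 0 of 7 in Hyp mice, where 0.15% of probe sets passed, 0 of 7 in normal mice, where 0.184% passed, 0 of 7 averaged over genotypes, where 0.472% passed, and 0 of 7 for the interaction, where 0.046% passed. At an unadjusted p under 0.05 the diet comparison in Hyp mice held 2 members, Hmox1 and Mt1, against 4.59% of probe sets, and that averaged over genotypes held 3, Hmox1, Mt1 and Gclc, against 9.75%. The comparison in normal mice held 0 at that level, against 8.56%, and so did the interaction, against 3.23%.

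**Figure D2:**
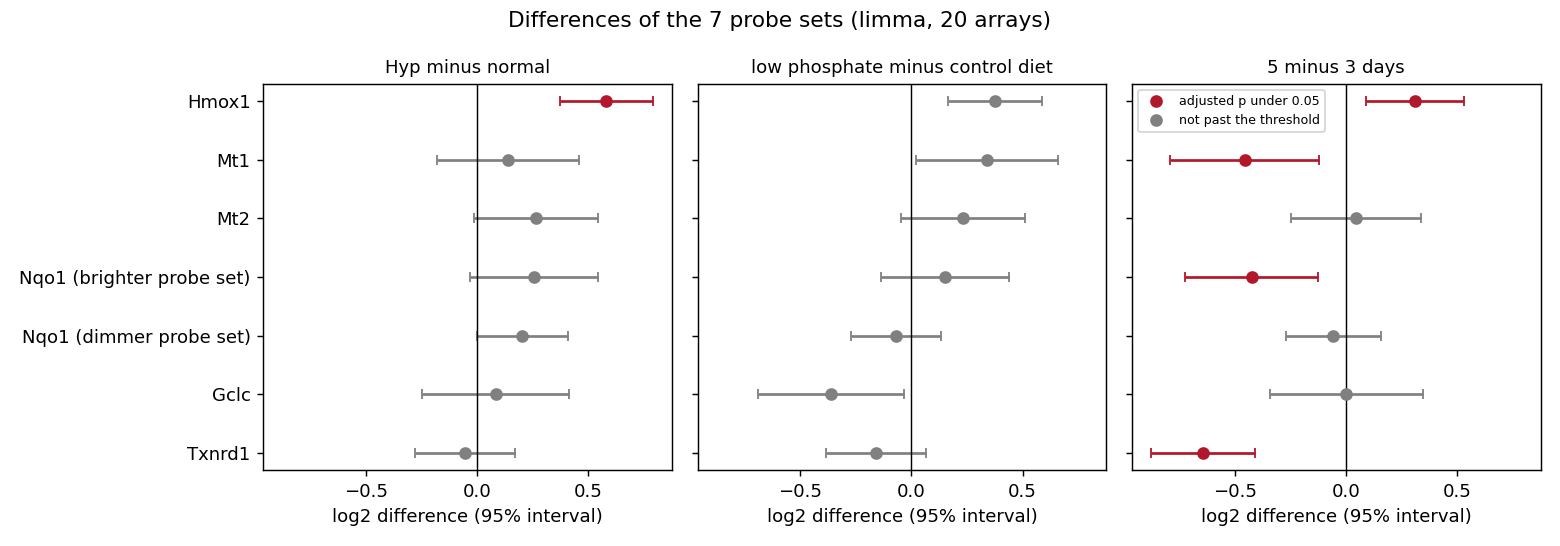
Log2 differences of the 7 probe sets (points) with 95% intervals from limma, for Hyp minus normal averaged over diets, low phosphate minus control diet averaged over genotypes, and 5 minus 3 days, in red where the adjusted p is under 0.05. Hmox1 (0.58) is the only red point for genotype, no point is red for diet, and 4 are red for days.

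The metallothioneins showed wide spread within every group and no passing difference by diet or genotype. Mt1, which encodes a zinc-binding and copper-binding metallothionein, had intensities of 3261, 2060.1, 3881.5, 4396 and 4937 in Hyp mice on low phosphate diet and 1934, 2029, 1860.1, 2872 and 4843 in Hyp mice on control diet, ordered as 5-day males, 5-day female, 3-day male and 3-day female. In normal mice it was 2468, 3134, 2814, 2448 and 3885 on low phosphate diet and 1305, 2539, 3665, 2575 and 3372.5 on control diet. The groups overlapped throughout, and in Hyp mice the 3-day female pools were the highest of their groups on both diets. The low phosphate difference was 0.49 ± 0.22 in Hyp mice (adjusted p = 0.998) and 0.34 ± 0.15 averaged over genotypes (adjusted p = 0.477). The averaged difference was positive in 4 of 4 strata, between 0.11 and 0.49. The genotype difference averaged over diets was 0.14 (adjusted p = 0.698).

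Mt2 encodes the other widely expressed metallothionein and followed Mt1. Its intensities were 2833, 2352, 3637, 3249.6 and 3445 in Hyp mice on low phosphate diet and 1731.5, 2057, 2484, 2582 and 3738 in Hyp mice on control diet, in the same order of pools. In normal mice they were 2429, 2522, 3321, 1362 and 2745 on low phosphate diet and 1580.2, 2407, 3037, 1871 and 2175 on control diet. The female pools were mostly the higher ones, and the groups overlapped. The Hyp difference of Mt2 was 0.36 ± 0.19 on low phosphate diet (adjusted p = 0.565) and 0.27 ± 0.13 averaged over diets (adjusted p = 0.358), and neither passed. After 3 days the averaged difference was 0.70 ± 0.16 (95% interval 0.35 to 1.04; adjusted p = 0.255), and after 5 days -0.02 ± 0.13 (adjusted p = 0.958). The difference between the durations was -0.72 (95% interval -1.16 to -0.28; adjusted p = 0.999), which did not pass.

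Mt1 and Mt2 moved together. Over the 20 arrays the log2 levels had a Pearson r of 0.76 and a Spearman rho of 0.79, and r was 0.83 after the mean of each stratum of sex and days was removed. The arrays share the scaling and the groups, so r is a description. Among 7791 probe sets of other genes, Mt2 was the one most like Mt1, followed by Supt6, a transcription elongation factor, at 0.75 and Btg1, an antiproliferative gene, at 0.73. For Mt2 the closest were Dusp1, a stress-inducible phosphatase, at 0.84, Mt1 at 0.76, and Cp, the copper protein ceruloplasmin, at 0.74. The log2 difference for days on diet, described further on, was -0.45 for Mt1 and 0.05 for Mt2. Both metallothionein windows printed above, which were chosen because of this correlation, hold several matches to the metal response element core. Whether these matches have a part in the correlation of Mt1 and Mt2 was not tested.

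**Figure D3:**
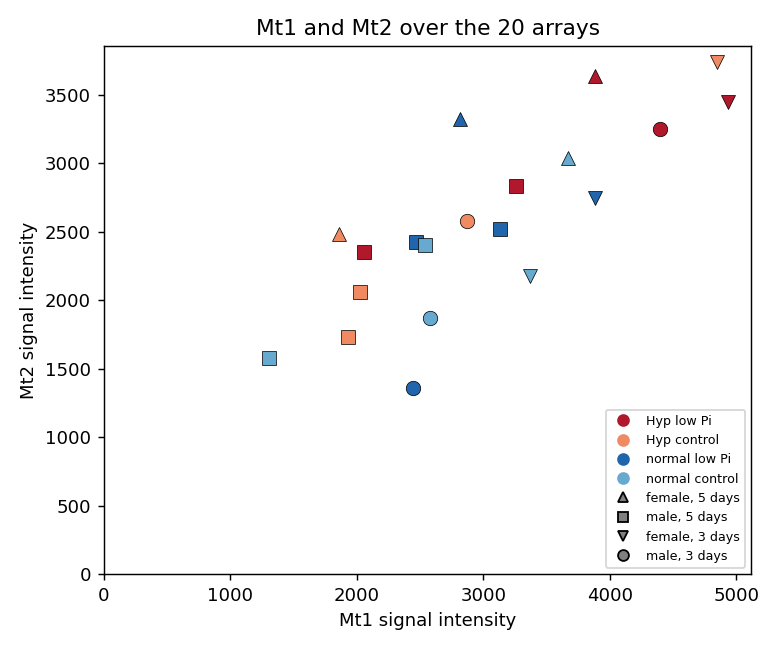
Intensity of Mt2 against Mt1 on each of the 20 arrays, on linear axes of signal intensity, coloured by group (Pi, phosphate) and with symbols for sex and days. Arrays high in Mt1 are mostly high in Mt2 (r of 0.76 on the log2 scale), and the 4 groups overlap.

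Nqo1, which reduces quinones and is a standard readout of NRF2 activity, was measured by 2 probe sets that differ in mean level. The brighter had 258, 283, 271, 571.5 and 402 in Hyp mice on low phosphate diet and 185, 266.5, 269.6, 486 and 377 in Hyp mice on control diet, in the order 5-day males, 5-day female, 3-day male and 3-day female. In normal mice it had 219, 281, 361, 266 and 276 on low phosphate diet and 171, 299, 212.5, 234 and 364 on control diet. The highest values were those of the 3-day Hyp males on both diets, and all groups overlapped. Averaged over diets the Hyp difference was 0.26 ± 0.14 for this probe set (adjusted p = 0.386) and 0.20 ± 0.10 for the dimmer one (adjusted p = 0.336). After 3 days the values were 0.62 (95% interval 0.20 to 1.04; adjusted p = 0.866) and 0.43 (0.06 to 0.79; adjusted p = 1), and after 5 days 0.01 (-0.33 to 0.36; adjusted p = 0.976) and 0.05 (-0.24 to 0.35; adjusted p = 0.893). The 5-day minus 3-day difference was -0.60 (-1.14 to -0.06; adjusted p = 0.999) and -0.37 (-0.84 to 0.10; adjusted p = 0.999).

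The dimmer Nqo1 probe set averaged 212 ± 50.3 in Hyp mice on low phosphate diet, 229.5 ± 59.8 in Hyp mice on control diet, 180.2 ± 25.9 in normal mice on low phosphate diet and 188 ± 30.7 in normal mice on control diet (SD, n = 5 each). The 2 probe sets had r of 0.64 over the 20 arrays, so they follow each other in part. Diet differences were opposite in sign, 0.15 and -0.07 averaged over genotypes, and passed for neither. The suffixes of both probe set names mark designs whose probes may also match related sequences, which limits them as measures of Nqo1 alone. The genes most like the brighter probe set were Rasd1, a steroid-inducible small GTPase, at r of 0.83, Pgrmc1, a heme-binding membrane protein, at 0.81 and Mob1b, a kinase activator, at 0.78.

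Gclc, the catalytic subunit of the enzyme that starts glutathione synthesis, had lower mean levels on low phosphate than on control diet, and the difference did not pass the test. In Hyp mice it was 1242, 2201, 1819, 1779.6 and 1539.5 on low phosphate diet, against 1181.5, 2990, 2796, 1980.3 and 2375 on control diet. In normal mice it was 1375, 1564, 2047, 1613 and 1359 on low phosphate diet, against 1464, 2415, 1823, 2332 and 2442 on control diet. In normal mice 2 low phosphate arrays lay below every control diet array. In Hyp mice 0 did, and the lowest array, at 1181.5, was on control diet. Within each genotype both diets overlapped. Over both genotypes Gclc averaged 1654 ± 308 on low phosphate diet and 2179.9 ± 568 on control diet (SD, n = 10 each).

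The diet difference of Gclc averaged over genotypes was -0.36 ± 0.16 (95% interval -0.69 to -0.03; adjusted p = 0.455). It was negative in 4 of 4 strata, between -0.72 and -0.22. It was -0.35 in Hyp mice and -0.38 in normal mice, and the interaction was 0.03 with a 95% interval of -0.63 to 0.69. The genotype difference averaged over diets was 0.08. Gclc had r of 0.61 over the 20 arrays with the ratio of the 3′ to the 5′ actin control probe sets, a measure of RNA integrity, and the part of RNA integrity in its spread was not tested. The genes most like it were Arpc2, an actin nucleation subunit, at r of 0.82, Ubxn4, an endoplasmic reticulum protein, at 0.81 and Immp1l, a mitochondrial protease subunit, at 0.81.

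Txnrd1, the enzyme that keeps thioredoxin reduced, did not differ detectably by diet or genotype. It averaged 1241 ± 501 in Hyp mice on low phosphate diet, 1389 ± 312 in Hyp mice on control diet, 1289 ± 271 in normal mice on low phosphate diet and 1373 ± 366 in normal mice on control diet (SD, n = 5 each). The diet difference averaged over genotypes was -0.16 ± 0.11 (adjusted p = 0.662) and the genotype difference averaged over diets was -0.06 ± 0.11, with a 95% interval of -0.28 to 0.17.

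**Figure D4:**
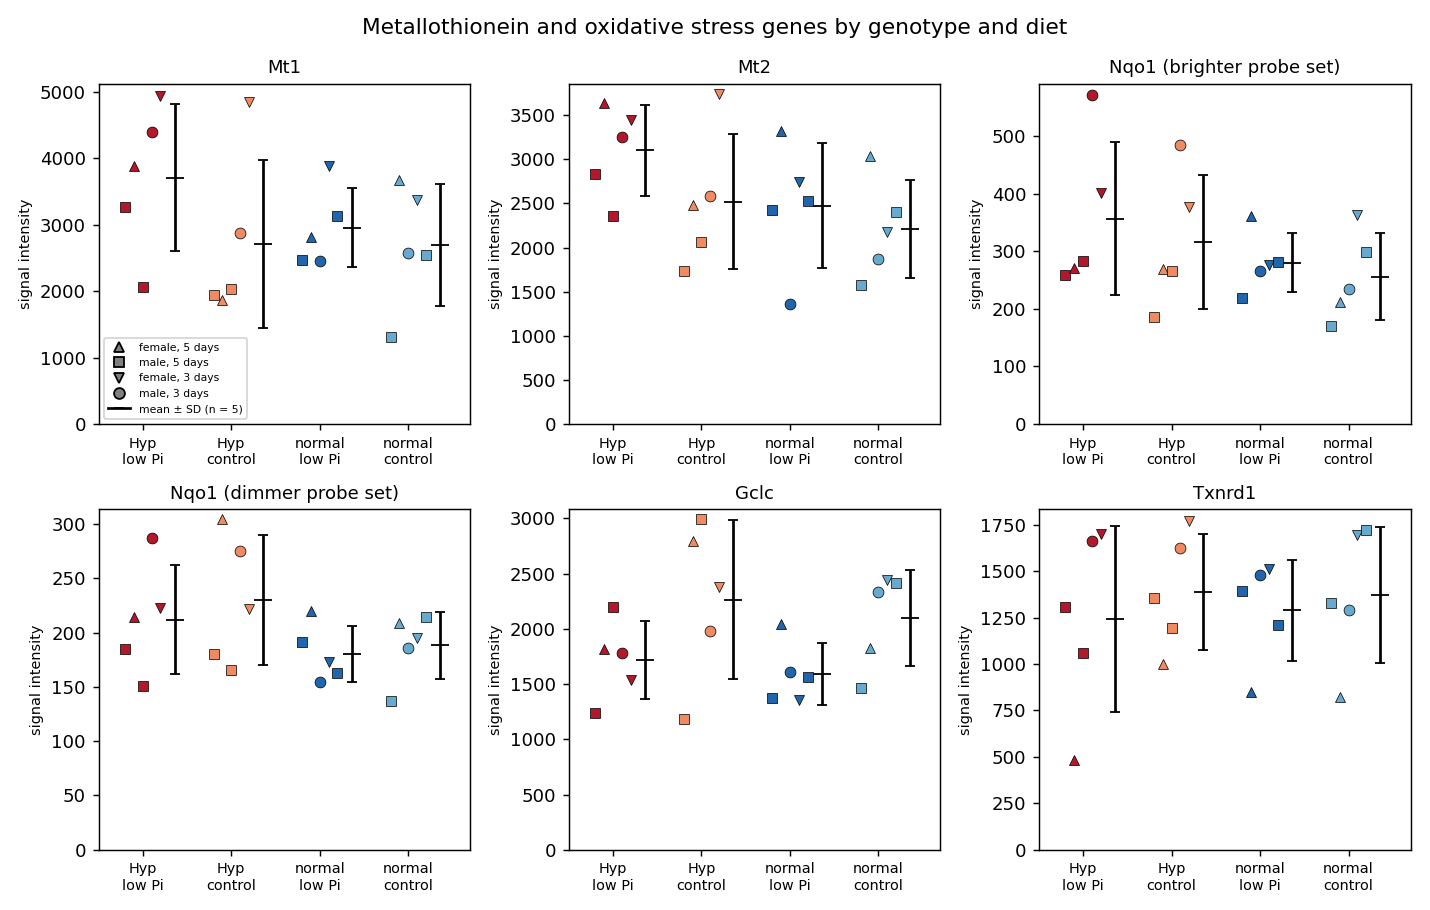
Signal intensity of the other 6 probe sets on each of the 20 arrays in the 4 groups (Pi, phosphate), with the same symbols for sex and days and bars for the mean and SD (n = 5). All groups overlap for each probe set, and the lowest Txnrd1 value (481) is the 5-day female Hyp pool on low phosphate diet.

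More members passed for days on diet than for diet or genotype, but days went with different array numbers, and days and the runs those numbers may stand for cannot be told apart. Comparing 5 with 3 days over all groups and both sexes, 4 of 7 members passed, against 40.9% of all probe sets, so passing was common in this comparison. Higher after 5 days was 1 of 7 members, against 20.7% of probe sets, and lower were 3 of 7, against 20.2%. Hmox1 had a lowest, median and highest intensity of 851, 1321 and 2421 on the 12 arrays of 5 days, against 732, 1159 and 1615 on the 8 arrays of 3 days, and was higher after 5 days by 0.31 ± 0.10 (adjusted p = 0.0256). Mt1 had 1305, 2504 and 3881.5 after 5 days, against 2448, 3629 and 4937 after 3 days, with a difference of -0.45 ± 0.16 (adjusted p = 0.0306). Hmox1 and Mt1 moved in opposite directions, and for each the durations overlapped. The brighter Nqo1 probe set had 171, 268 and 361 after 5 days, against 234, 370.3 and 571.5 after 3 days, with a difference of -0.42 ± 0.14 (adjusted p = 0.0254). Txnrd1 had 481, 1204 and 1722 after 5 days, against 1292, 1643 and 1769 after 3 days, with a difference of -0.64 ± 0.11 (adjusted p = 0.000476). Mt2, Gclc and the dimmer Nqo1 probe set had differences of 0.05, 0.00 and -0.06.

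Txnrd1 differed by days within females and not detectably within males. In the 4 pools of 5-day females, arrays 5 to 8 in the labels' numbering, it was 481, 1000, 851 and 825, and in the 4 pools of 3-day females 1702, 1769, 1509.9 and 1697, both in the order Hyp low phosphate, Hyp control, normal low phosphate and normal control. These pools did not overlap, and the share of all probe sets that separate in this way was not counted. In the 8 pools of 5-day males its lowest, median and highest values were 1058, 1317 and 1722, and the 4 pools of 3-day males had 1660.4, 1626, 1480.2 and 1292, inside that range. Fitted within females the difference was -1.09 (adjusted p = 0.00828), against 32.9% of probe sets passing, and within males it was -0.20 (adjusted p = 0.478), against 0.069%. The difference between the sexes was not tested.

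Arrays 5 to 8 also stood apart in quality. Their actin 3′ to 5′ ratio was 1.74 to 2.61, against 1.22 to 1.98 on the other 16 arrays, and their median Spearman correlation with other arrays was 0.895 to 0.934, against 0.943 to 0.969. Txnrd1 averaged 789 ± 219 on them (n = 4) and 1456 ± 220.2 on the other 16 (SD). Its level had r of -0.50 with the actin ratio over the 20 arrays. A large group of genes moved with it, since 297 of 7791 probe sets of other genes had r above 0.8 with Txnrd1, led by Arpc1a, an actin nucleation subunit (0.96), Dhrsx, a dehydrogenase (0.93) and Txn1, thioredoxin itself (0.93). The part of array quality in the Txnrd1 difference was not tested.

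None of the 4 day differences passed within males, where they were 0.25 for Hmox1, -0.40 for Mt1, -0.53 for the brighter Nqo1 probe set and -0.20 for Txnrd1, and all 4 kept their sign within females, with 0.37, -0.51, -0.32 and -1.09. With the array set as a random block Txnrd1 alone passed (-0.65, adjusted p = 0.0271, against 12.1% of probe sets). Leaving out 1 array ended the call of Hmox1 for array 18 (0.22, adjusted p = 0.0739), of Mt1 for arrays 6, 7, 13, 14 and 17 (-0.44 to -0.36, adjusted p of 0.0586 to 0.0839) and of Nqo1 for arrays 8, 13, 14 and 15 (-0.38 to -0.34, adjusted p of 0.0594 to 0.0723).

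The diet and genotype comparisons were also made within each duration. Of the 7 members 0 passed for diet after 5 days, against 0.092% of probe sets, for diet after 3 days, against 0.0575%, for genotype after 5 days, against 0.173%, and for genotype after 3 days, against 0.0805%. At an unadjusted p under 0.05 in limma the counts in that order were 3 of 7 against 6.26%, 0 of 7 against 3.42%, 1 of 7 against 13.5%, and 4 of 7 against 2.62%. The 4 members after 3 days were Hmox1, Mt2 and both Nqo1 probe sets, so Nqo1 was counted through 2 probe sets with r of 0.64 that are not independent. No probe set at all passed when the diet or the genotype difference was compared between durations, where 0 of 7 and 2 of 7 members had an unadjusted p under 0.05, against 2.2% and 3.16% of probe sets. For Hmox1 the diet difference was 0.43 after 5 days and 0.30 after 3 days, with a difference between durations of 0.13 (95% interval -0.29 to 0.56).

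**Figure D5:**
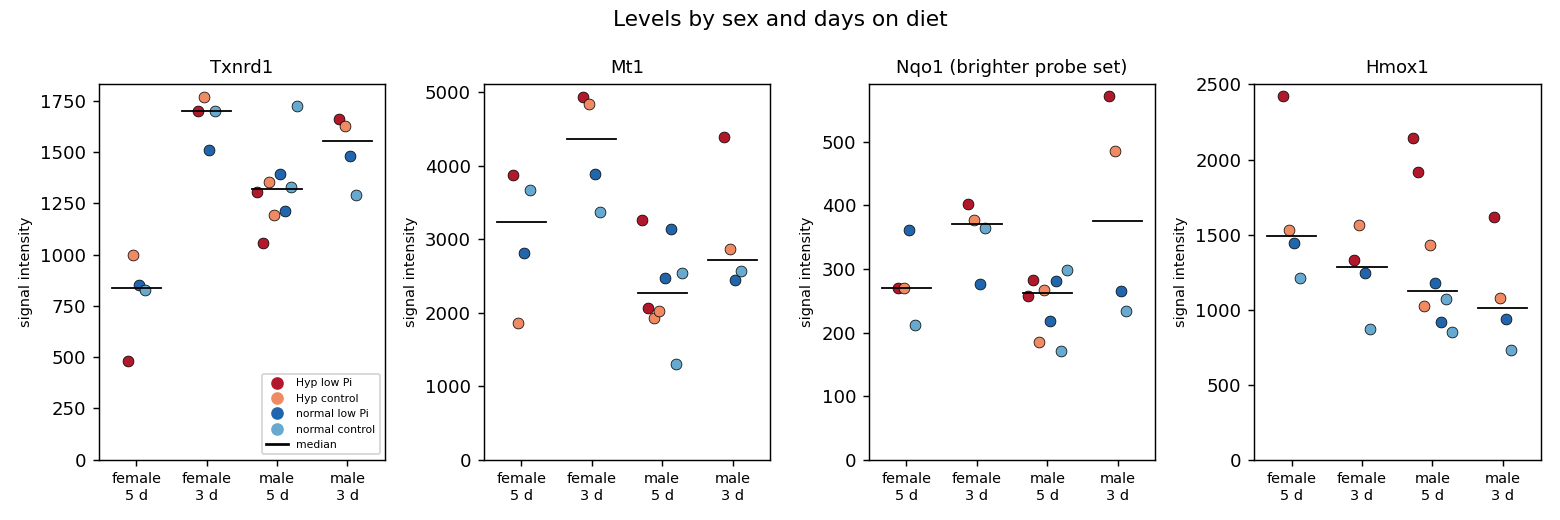
Signal intensity of Txnrd1, Mt1, the brighter Nqo1 probe set and Hmox1, which passed for days, by sex and days on diet, with points for arrays coloured by group (Pi, phosphate) and lines for medians, over 8 arrays of 5-day males and 4 in each other stratum. Txnrd1 is 481 to 1000 in 5-day females and 1509.9 to 1769 in 3-day females.

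Between the sexes 1 of 7 members passed, Mt2, against 16.6% of probe sets. All female pools lay on arrays 5 to 8 or 15 to 18 and all male pools on the other arrays. Sex and the runs these numbers may stand for cannot be told apart. The lowest, median and highest Mt2 intensities were 2175, 3179 and 3738 in the 8 female pools, against 1362, 2379 and 3249.6 in the 12 male pools. The sexes overlapped, with most female pools above most male pools. Mt2 averaged 3073 ± 564 in females (n = 8) and 2248 ± 546 in males (SD, n = 12), a difference of 0.47 ± 0.14 (adjusted p = 0.0283). Mt1 had a difference of 0.43 that did not pass (adjusted p = 0.0717), Hmox1 one of 0.28 (0.0743) and Txnrd1 one of -0.30 (0.0712). For Txnrd1 it was -0.75 on the arrays of 5 days, whose females were arrays 5 to 8, and 0.14 on those of 3 days. The Mt2 call was lost without any one of arrays 5, 6, 12 and 17, with differences of 0.35 to 0.43 and adjusted p of 0.0569 to 0.0718, and with the array set as a random block (0.46, adjusted p = 0.323).

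The wider pathways around these genes gave few calls by genotype. Of 27 tested NRF2 targets, 1 was higher in Hyp averaged over diets, Hmox1 itself, and 0 were lower, against 1.28% of all probe sets passing, with a median difference of -0.05 against 0.02 for all genes. At an unadjusted p under 0.05, against 15% of all probe sets, stood 3 of 27 NRF2 targets, 3 of 14 heme genes, 4 of 18 genes of metal handling, 5 of 15 stress genes, 2 of 10 glutathione genes, 3 of 17 peroxide and superoxide genes and 1 of 8 regulators. Some genes, Hmox1 among them, stand in more than 1 of these lists, so the counts are not independent. Of 10 tested genes of glutathione synthesis and turnover 0 passed (2 at an unadjusted p under 0.05), with a median of -0.09. Of 17 genes of peroxide and superoxide defence 0 passed (3 at an unadjusted p under 0.05), 13 had negative differences, and the median was -0.11. Of 14 genes of heme synthesis and breakdown Hmox1 alone passed. On low phosphate diet Hmox1 was likewise the single call among the 27 NRF2 targets and the 14 heme genes.

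Outside the members, 3 genes of these lists passed for genotype averaged over diets. Nfe2l2, which encodes NRF2, was higher in Hyp by 0.31 ± 0.07 (adjusted p = 0.0232), at 1774 ± 194 in Hyp mice on low phosphate diet, 1841 ± 253 in Hyp mice on control diet, 1429 ± 253 in normal mice on low phosphate diet and 1475 ± 191 in normal mice on control diet (SD, n = 5 each). It was 1 of 8 tested regulators of NRF2 activity, and the call was lost without any one of arrays 10, 12, 13, 14 and 16 (0.29 to 0.30, adjusted p of 0.0507 to 0.0564). It was also lost in 7 of 13 other settings, among them no terms for sex and days (adjusted p = 0.381), without arrays 5 to 8 (0.058) and without arrays 9, 10, 19 and 20 (0.0985).

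Cp, the copper-carrying ferroxidase ceruloplasmin, was the 1 call among 18 tested genes of metal handling. It averaged 683 ± 207 in Hyp mice on low phosphate diet, 514 ± 207 in Hyp mice on control diet, 526 ± 219 in normal mice on low phosphate diet and 305 ± 83 in normal mice on control diet, and was higher in Hyp by 0.51 ± 0.12 (adjusted p = 0.0497). The call rested at the threshold and was lost without any one of 15 arrays, all but 3, 4, 6, 11 and 20 (0.45 to 0.54, adjusted p of 0.0546 to 0.113). It was also lost in 10 of 13 other settings, with adjusted p of 0.058 for an offset of 1, 0.0717 for quantile normalization, 0.0738 for no filter and up to 0.688 elsewhere. Gadd45b, a stress-induced growth arrest gene, was lower in Hyp by 0.61 (log2 difference -0.61 ± 0.13, adjusted p = 0.0232) and was the 1 call among 15 heat shock and stress genes. It was dim, at 78.1 ± 36.3 in Hyp mice on low phosphate diet, 63 ± 27.9 in Hyp mice on control diet, 129.9 ± 10.6 in normal mice on low phosphate diet and 119 ± 34.1 in normal mice on control diet, and its call was lost without array 2 or array 4 (-0.59 to -0.58, adjusted p of 0.0505 to 0.0553). It was also lost in 7 of 12 other settings, among them no terms for sex and days (adjusted p = 0.0972), without arrays 5 to 8 (0.0526) and without arrays 9, 10, 19 and 20 (0.141), and an offset of 1 moved the difference to -0.89.

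Diet gave 0 calls in limma in the 8 pathway lists in Hyp mice, in normal mice and averaged over genotypes. Of the 27 NRF2 targets, 4, 4 and 8 had an unadjusted p under 0.05 in these comparisons, and of the 10 glutathione genes 1, 2 and 5, against 4.59%, 8.56% and 9.75% of all probe sets. The NRF2 and glutathione lists share Gclc, Gclm, Gsr and Slc7a11, so these counts are not independent. In the averaged comparison they include the members Hmox1 and Gclc. In the averaged comparison 14 NRF2 targets were higher on low phosphate diet and 13 lower, with a median of 0.001 against 0.006 for all genes. The smallest p among them after Hmox1 was that of Gsta2, a glutathione transferase, at -0.37 (adjusted p = 0.142). Gclm, the modifier subunit that pairs with Gclc, had -0.26 (adjusted p = 0.4). Gsr, which regenerates reduced glutathione, had -0.27 (0.409), and Cp had 0.54 (0.066). For days on diet, which cannot be told apart from array runs, 2 of 27 NRF2 targets were higher after 5 days and 10 lower, among the 17 peroxide and superoxide genes 1 was higher and 7 lower, and of the 10 glutathione genes 0 were higher and 4 lower. Of all probe sets 20.7% were higher and 20.2% lower in that comparison.

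Across the 20 arrays the other members did not follow Hmox1 closely. Its Pearson r was 0.59 with Mt2, 0.24 with Mt1, 0.17 with the brighter Nqo1 probe set, -0.03 with Gclc and -0.50 with Txnrd1. The genes most like Hmox1 were C2, a complement component, at 0.87, Rad52, a DNA repair gene, at 0.85 and Rabgap1l, a regulator of vesicle traffic, at 0.80, out of 7791 probe sets. These values describe arrays that share groups, scaling and runs. They say nothing of shared control.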

How the data were processed

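Mouse kidney RNA, pooled from 3 mice for every sample per the labels, was read out on 20 oligonucleotide arrays. The deposited table gives a linear intensity for each probe set on each array. The authors' scaling made the mean equal across arrays once 2% was trimmed at both ends (500.254 to 500.309), and the sources used here do not name their software. Background estimates were not part of the values used, so precision rests on how many arrays there are. Of 12488 probe sets, 66 were controls, 0 columns stayed unused, and 0 pairs of arrays were identical. The annotation gives exactly 1 gene to 10833 probe sets, more than 1 to 396 and none to 1193, and the RefSeq gene table held 10817 of the first kind.

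The deposited intensities kept their scaling. Log2 was taken after adding 38 (their 20th percentile overall). Log2 differences of dim genes are therefore understated, and folds are ratios of offset intensities. A filter at the 30th percentile of mean intensity left 8695 probe sets. The fit used limma 3.58.1 (R 4.3.3) with terms for group and for the 4 strata of sex and days over every array, leaving 13 residual degrees of freedom. Differences within a duration came from means of each group and duration with a sex term (11 residual degrees of freedom). There were 15 comparisons, each two-sided, with Benjamini-Hochberg adjustment across the probe sets tested and a threshold of 0.05. The steps were tested on simulated data. In gene lists the brightest probe set stood for its gene (6433 genes).

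All members were named. Of each list, genes past the threshold were named, or else those with the smallest p, and for each member the 3 other genes with the highest correlation. Members, lists, comparisons and alternatives were chosen with earlier results of these data known. The alternatives changed the offset (to 1), the normalization (quantile), the filter (absent, or at the median), the moderation (trend, robust), the terms for sex and days (dropped), the samples (the compared groups, either sex, either duration, arrays 5 to 8 omitted, arrays 9, 10, 19 and 20 omitted, each array omitted in turn), the block (the array set, random) and the probe sets of a gene (their mean). Promoter windows came from RefSeq (GRCm38.p6), with 4 of the 6 genes matched.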

Additional observations from a re-analysis of the deposited data

How the results depend on the processing

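Of 3296 values of 105 results under 34 alternatives, 3231 kept their direction and side of the threshold or passed in neither fit, 55 lost the threshold, 10 gained it and 0 turned sign with a call; 177 values that passed in neither fit changed sign. No paired analysis was possible because the labels number the arrays 1 to 20 and the groups share no replicate number, but a match by array set was: without arrays 9, 10, 19 and 20 each stratum is 1 set with an array of every group. The genotype difference of Hmox1 on low phosphate diet lost the threshold with an offset of 1 (0.71, adjusted p = 0.0514), no filter (0.69, 0.0581), a fit to the groups compared alone (0.69, 0.221), no terms for sex and days (0.69, 0.344), 5 days (0.87, 0.241) or 3 days only (0.43, 0.659), males (0.88, 0.187) or females only (0.42, 0.904), without arrays 5 to 8 (0.68, 0.238) and without arrays 9, 10, 19 and 20 (0.61, 0.195). The members passing there were then 0. With 1 array left out it was 0.62 to 0.83 and 0 to 1 members passed. The difference averaged over diets lost the threshold without terms for sex and days (0.58, 0.0656), in 5 days (0.60, 0.16), 3 days (0.55, 0.343), males (0.64, 0.0819) or females only (0.50, 0.719), and without arrays 9, 10, 19 and 20 (0.51, 0.0599), again with 0 members, and was 0.53 to 0.65 with 1 array left out. Fits within a sex or duration use fewer arrays by construction, and the cause of the other losses was not tested. Members passing for days were 0 in males, against 0.069% of probe sets, and 1 in females, against 32.9%. They were 1 with the array set as a block, against 12.1%, and 2 to 4 with 1 array left out, against 40.9% with all arrays. For sex, where 16.6% of probe sets passed on the main settings, they were 2 in 5 days only and without arrays 9, 10, 19 and 20. They were 0 in 3 days only and with the block, and 0 to 3 with 1 array left out. For diet averaged over genotypes they were 0 to 1 with 1 array left out, against 0.472% on the main settings. For genotype after 5 days they were 1 with the filter at the median and with trend and robust variances, which was Hmox1 (adjusted p = 0.0409 and 0.0452). On the main settings 0.173% of probe sets passed there. Shares of probe sets for the other settings are not given here, so these counts are no result about the members. The 5 arrays in each group and the dim Nqo1 probe sets limit what could be detected.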
